A study of Homo sapiens with 6 samples.

Results

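TGF-beta signalling was examined through 10 genes: the ligands TGFB1 and TGFB2, the receptors TGFBR1 and TGFBR2, the signal carriers SMAD2, SMAD3 and SMAD4, the inhibitors SMAD7 and SKIL, and the deubiquitinase USP15. They were listed by symbol for their roles in the pathway, with earlier results of these data known. A gene could be read where the platform annotation gave its symbol to a row of the value table, which was so for 6 of the 10 (SMAD2, SMAD3, SMAD4, SMAD7, SKIL and USP15, with 1 row each), out of 14884 genes with a named row. Rows for the other 4, which are both ligands and both receptors, were not named in the annotation used here, so TGFB1, TGFB2, TGFBR1 and TGFBR2 were not analysed here. The results below therefore cover the SMADs and their regulators and say nothing about ligand or receptor RNA.

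The RNA was that of A549 cells, an established human line of lung adenocarcinoma, 48 hours after lipid transfection and hybridised to whole-transcript arrays. There were 3 groups with 2 arrays each: a control siRNA, MYEOV siRNA 1 and MYEOV siRNA 2. The groups differ in the siRNA alone, as far as the labels say. The knockdown was transient, neither the siRNA sequences nor the target of the control siRNA is given in the sources used here, and no label ties the replicate arrays to separate transfections. The p-values then reflect only how far these arrays spread, and that spread may be technical. Values are log2 signals, and n = 2 arrays per group throughout. Signals of different genes come from different probes and are not compared with each other.

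TGF-beta ligands bring together a pair of receptor kinases, of which TGFBR2 activates TGFBR1. The active receptor phosphorylates SMAD2 and SMAD3, which join SMAD4 and enter the nucleus to control transcription. In epithelial tumours the pathway restrains growth early and is known for driving the mesenchymal change and spread of later disease. SMAD7 blocks the receptor and draws ubiquitin ligases to it, SKIL (SnoN) represses SMAD target genes, and both are themselves transcribed in response to the pathway. USP15 removes ubiquitin from the receptor complex and from receptor-activated SMADs. Other work in lung cancer has described the MYEOV transcript as a competitor for miR-30c-2-3p, with TGFBR2 and USP15 among the RNAs bound by the same microRNA, and USP15 is the one of these for which a row was named. The mature microRNA is shown to identify it, from RefSeq with the GRCh38.p14 build (chr6:71376964-71376985, minus strand), with its seed (bases 2 to 8) in capitals.

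miR-30c-2-3p: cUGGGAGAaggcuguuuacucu

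The labels were checked on MYEOV itself. Its signal was 6.20 and 6.50 in control arrays, 5.34 and 5.19 after siRNA 1, and 5.23 and 4.70 after siRNA 2. All 4 arrays of the MYEOV siRNAs lay below both control arrays. They also lay below 5.45, the mean log2 signal a gene needed to be tested, so MYEOV was tested through its control arrays. Differences are compressed at such dim signals, so the size of the fall is uncertain. MYEOV fell with siRNA 1, at -1.09 (limma adjusted p = 0.0215), and with siRNA 2, at -1.39 (adjusted p = 0.00516). Without any 1 of the control or siRNA 1 arrays the call for siRNA 1 was lost, with adjusted p from 0.0671 to 0.146, and so it was with no filter on dim genes (0.135). The difference stayed between -1.23 and -0.94 in all 15 alternatives. The call for siRNA 2 was kept in all 15. As markers of the cell line, 4 of 5 epithelial genes had a row and all 4 (KRT8, KRT18, KRT19 and EPCAM) were at or above the level at which genes were tested, a mean log2 signal of 5.45. None of the 4 alveolar type II markers, the 2 endothelial markers and the 1 fibroblast marker with a row reached it. Of the 2 leukocyte markers with a row, CD68 did, at 9.33, a gene that many non-immune cells also express, and CD14 did not. None of the 5 genes listed as A549 metabolic markers had a named row. The mean over the 4 epithelial genes was 7.89 to 7.93 in control arrays, 7.91 to 7.94 with siRNA 1 and 7.70 to 7.84 with siRNA 2 and was thus lower with siRNA 2. KRT8, KRT18 and KRT19 had lower means with siRNA 2 than in control arrays, whereas EPCAM was higher, at 7.27 and 7.21 against 6.92 and 7.11. The alveolar type II mean over 4 genes was 4.15 to 4.20 in control arrays, 4.15 to 4.20 with siRNA 1 and 4.24 to 4.28 with siRNA 2. The mean of CD14 and CD68 was 6.58 to 6.91, 6.77 to 6.89 and 6.90 to 7.05 in the same order. The part of these shifts in the results with siRNA 2 was not tested.

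With siRNA 2, USP15 and SMAD2 rose and SKIL fell, each by less than 1.5-fold, while no call was made for SMAD3, SMAD4 or SMAD7. With siRNA 1, SMAD2 and USP15 had higher means and SKIL a lower mean than the control, and no change passed the test. The siRNAs did not differ detectably from each other in any of the 6 genes. All 6 were among the 7442 genes tested with limma, and a call means a Benjamini-Hochberg adjusted p under 0.05 over all 7442.

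The 6 genes were chosen with earlier results of these data known, so the shares below are a description. For siRNA 2 against control, limma called 3 of the 6 genes, 2 higher and 1 lower. It called 6.83% of all genes tested (2.59% higher and 4.23% lower). At an unadjusted limma p under 0.05 were 4 of the 6, and 22.2% of all genes. For siRNA 1 against control it called 0 of 6, where 4.66% of all genes were called, and 2 were at an unadjusted p under 0.05, as were 19.2% of all genes. For siRNA 1 against siRNA 2 it called 0 of 6, where 9.15% of all genes were called, and 2 were at an unadjusted p under 0.05, as were 23.6% of all genes. The median difference over the 6 genes was 0.01, -0.01 and 0.01 on the log2 scale in the 3 comparisons (siRNA 1, siRNA 2, siRNA 1 minus siRNA 2), and -0.0027, 0.00054 and -0.00055 over all genes tested. The same 2 control arrays serve both siRNA comparisons, so a change seen in both is partly 1 measurement. For a single gene the smallest p of an exact permutation test between groups of 2 arrays is 0.333, and the calls depend on the spread that limma shares over genes. An array reads a whole culture, so fewer cells that express a gene and less RNA per cell cannot be told apart.

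**Figure D1:**
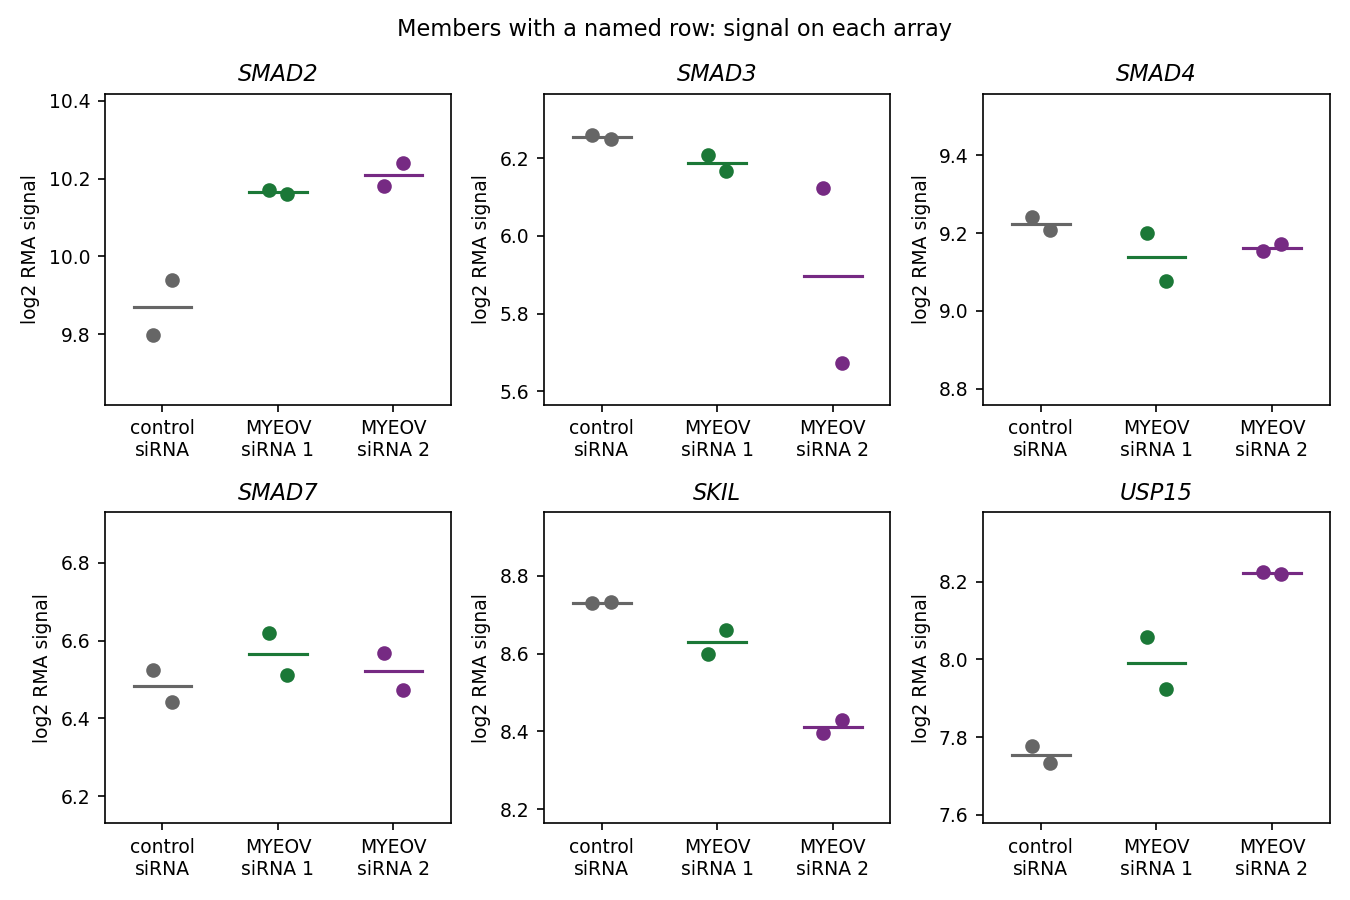
Log2 RMA signal (y axis, spanning 0.8 units in every panel) of the 6 genes on each of the 6 arrays (points) with the group mean (line), for the control siRNA, MYEOV siRNA 1 and MYEOV siRNA 2. SMAD2 and USP15 lie above and SKIL below both control arrays with either MYEOV siRNA, and the low SMAD3 mean with siRNA 2 comes with 1 array at 5.67.

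SMAD2 and SMAD3 are the carriers that the TGF-beta receptor phosphorylates. SMAD2, at chr18:47808957-47930872 on GRCh38.p14 in the RefSeq gene table, had a signal of 9.80 and 9.94 in control arrays. It was 10.17 and 10.16 with siRNA 1, and 10.18 and 10.24 with siRNA 2. Every array of either MYEOV siRNA was above both control arrays, and the lowest array of siRNA 2 stood only just above those of siRNA 1. The difference from control was 0.34 ± 0.08 (SE) on the log2 scale with siRNA 2 (95% confidence interval 0.16 to 0.52, limma adjusted p = 0.0451), a signal 26.5% higher. With siRNA 1 it was 0.29 ± 0.08 (0.11 to 0.47, adjusted p = 0.0859), which did not pass. The siRNAs differed by -0.05 in SMAD2 (interval -0.23 to 0.13, adjusted p = 0.776). The order of the means was therefore control, siRNA 1, siRNA 2, and the test did not tell the neighbours siRNA 1 and siRNA 2 apart.

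SMAD3, at chr15:67065602-67195169, is the carrier that binds DNA directly. Its signal was 6.26 and 6.25 in control arrays and 6.21 and 6.17 with siRNA 1. With siRNA 2 the arrays gave 6.12 and 5.67, so these replicates stood further apart (SD 0.32) than those of any other group in the 6 genes. Both arrays of siRNA 2 were below all others. The difference from control was -0.36 ± 0.14 (SE) with siRNA 2 (interval -0.68 to -0.04, limma adjusted p = 0.181) and -0.07 ± 0.14 with siRNA 1 (-0.39 to 0.25, adjusted p = 0.838). The difference between the siRNAs was 0.29 (-0.03 to 0.61, adjusted p = 0.258). A single array decided this gene: without siRNA 2 replicate 1, which leaves the array at 5.67 as the only one of its group, the change was -0.58 (adjusted p = 0.0257) and the difference between the siRNAs 0.52 (adjusted p = 0.0319), and without siRNA 2 replicate 2 these were -0.13 (adjusted p = 0.545) and 0.06 (adjusted p = 0.781).

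SMAD4, the partner shared by all SMAD carriers, at chr18:51030213-51085042, varied least. Its signal was 9.24 and 9.21 in control arrays, 9.20 and 9.08 after siRNA 1, and 9.15 and 9.17 after siRNA 2. The control arrays were highest, but all 6 arrays lay within 0.17 of each other. The difference from control was -0.09 with siRNA 1 (interval -0.26 to 0.08, limma adjusted p = 0.583) and -0.06 with siRNA 2 (-0.23 to 0.11, adjusted p = 0.691).

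Among the inhibitors, SMAD7 showed no detectable change and SKIL fell with siRNA 2. SMAD7, at chr18:48919853-48950965, had a signal of 6.52 and 6.44 in control arrays, 6.62 and 6.51 after siRNA 1, and 6.57 and 6.47 after siRNA 2. The 3 groups overlapped. Its difference from control was 0.08 with siRNA 1 (interval -0.10 to 0.26, limma adjusted p = 0.636) and 0.04 with siRNA 2 (-0.14 to 0.22, adjusted p = 0.832). The intervals reach well beyond these differences, so larger changes could also be missed here.

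SKIL, at chr3:170357715-170396849, gave 8.73 in both control arrays, 8.60 and 8.66 after siRNA 1, and 8.40 and 8.43 after siRNA 2. The groups did not overlap, with the control highest and siRNA 2 lowest. With siRNA 2 it fell by 0.32 ± 0.07 (SE) on the log2 scale (interval -0.48 to -0.16, limma adjusted p = 0.0362), and the signal fell by 19.8%. With siRNA 1 the difference was -0.10 ± 0.07 (-0.26 to 0.06, adjusted p = 0.473). It did not pass, although both siRNA 1 arrays lay below both control arrays. The siRNAs differed by 0.22 (0.06 to 0.37, adjusted p = 0.0942), which did not pass.

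USP15, at chr12:62260404-62416389, had the largest difference of the 6 genes. Its signal was 7.78 and 7.73 in control arrays, 8.06 and 7.92 after siRNA 1, and 8.22 and 8.22 after siRNA 2. The groups did not overlap, and their order was control, siRNA 1, siRNA 2. With siRNA 2 it rose by 0.47 ± 0.07 (SE) on the log2 scale (interval 0.29 to 0.64, limma adjusted p = 0.0131), a signal 38.2% higher. With siRNA 1 the difference was 0.24 ± 0.07 (0.06 to 0.41, adjusted p = 0.136) and did not pass. The siRNAs differed by -0.23 (-0.41 to -0.06, adjusted p = 0.107), so neither neighbour of siRNA 1 in that order was told apart from it by the test. USP4, a close relative of USP15 that also acts on the TGF-beta receptor, differed from control by 0.03 with siRNA 1 and -0.05 with siRNA 2 (limma adjusted p = 0.859 and 0.754).

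**Figure D2:**
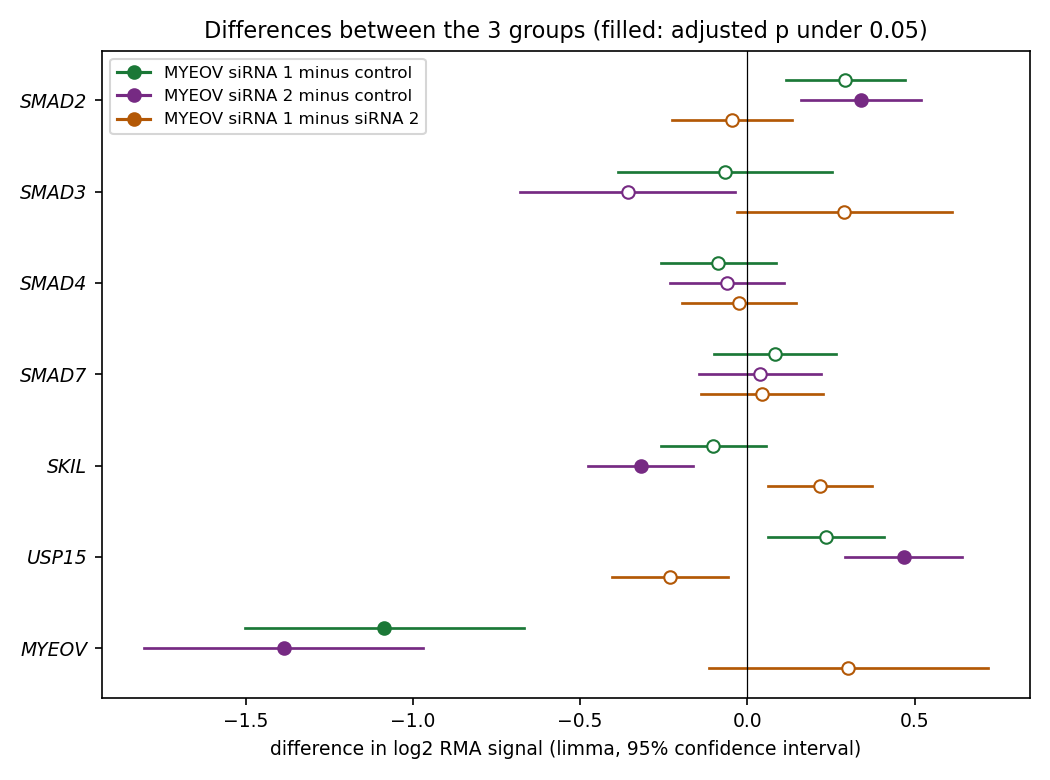
Differences in log2 RMA signal (x axis) between the 3 groups for the 6 genes and MYEOV, from limma, with lines for the 95% confidence interval and filled points where the adjusted p was under 0.05. SMAD2, SKIL and USP15 are filled for siRNA 2 against control alone, at 0.34, -0.32 and 0.47, and MYEOV for both siRNAs against control.

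The 3 calls for siRNA 2 depended on the arrays and on the filter on dim genes. Without control replicate 1 or replicate 2, the limma adjusted p was 0.168 and 0.0653 for SMAD2, 0.122 and 0.109 for SKIL, and 0.0609 and 0.0711 for USP15. Without siRNA 2 replicate 1 or replicate 2 it was 0.124 and 0.199 for SMAD2, 0.153 and 0.135 for SKIL, and 0.0711 and 0.0733 for USP15. An arm left with 1 array is assumed to vary like the other groups. Leaving out either siRNA 1 array, which only removes a measure of spread, gave 0.0861 for SMAD2 and 0.0697 for SKIL, and USP15 stayed called at 0.0232. With no filter on dim genes, which raises the genes tested to 14884, it was 0.225, 0.215 and 0.110. With array quality weights SMAD2 was not called, at 0.0503. The size of the change moved less: over all 16 alternatives it ran from 0.27 to 0.41 for SMAD2, -0.33 to -0.29 for SKIL and 0.44 to 0.49 for USP15. The SMAD2 difference with siRNA 1 was called by limma with a trend and robust prior (adjusted p = 0.0220) and with the 75th percentile filter (0.0297). That filter also called the differences between the siRNAs in SKIL (0.0369) and USP15 (0.0443).

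**Figure D3:**
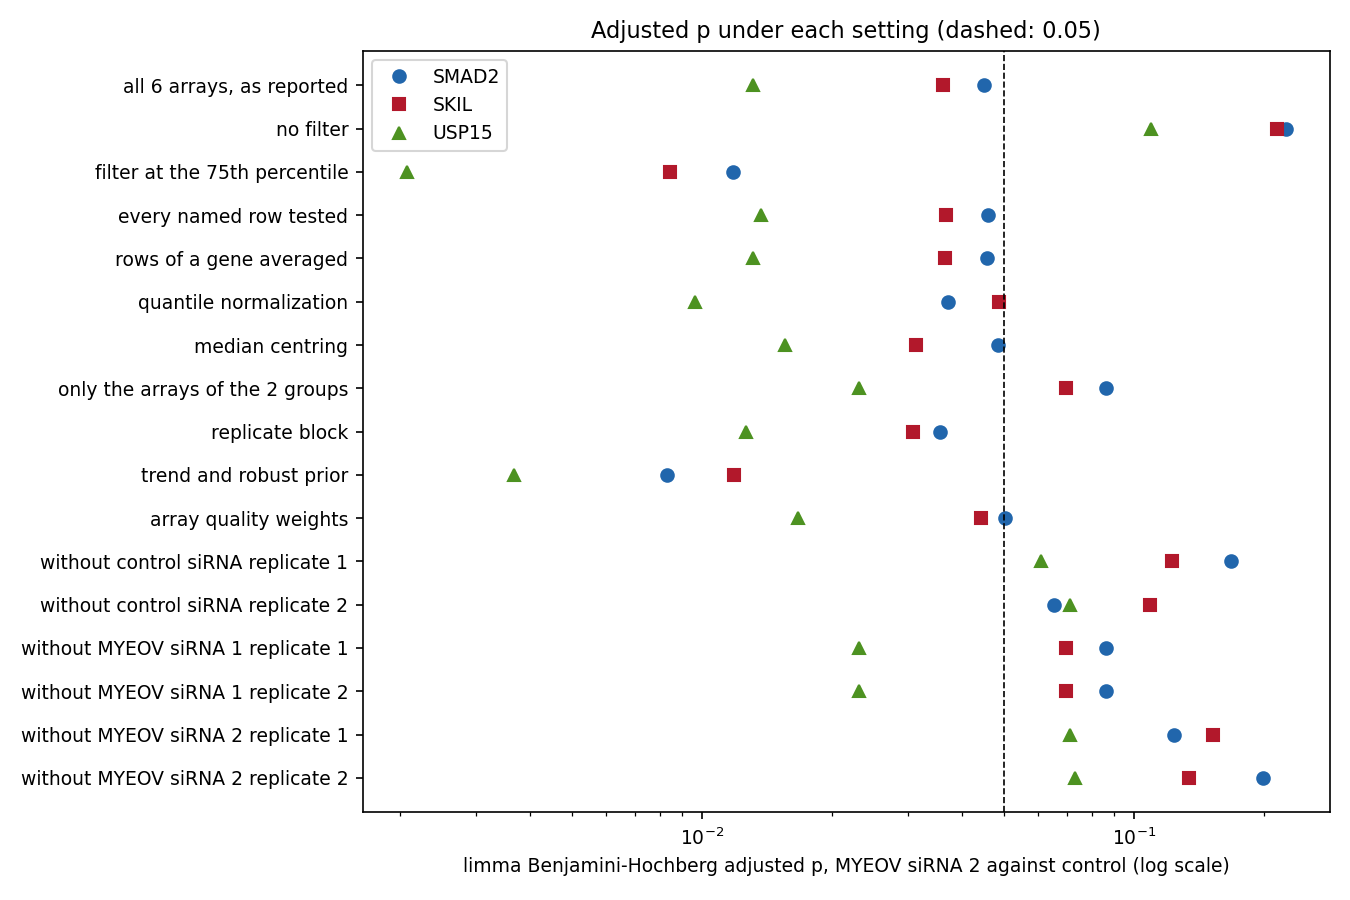
Limma adjusted p (x axis, log scale) of SMAD2, SKIL and USP15 for MYEOV siRNA 2 against control, with all 6 arrays as reported (top) and under each of 16 alternatives (rows). USP15 crosses the dashed line at 0.05 without any single control or siRNA 2 array, at 0.0609 to 0.0733, and with no filter, at 0.110.

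SKIL and SMAD7 are both known targets of the SMADs, and USP15 had the clearest call, so the promoters of these 3 genes are shown. They come from RefSeq with the GRCh38.p14 build. The windows searched ran from 250 bases before to 50 bases after a transcript start, all 6 genes had at least 1, and the 250 bases before the start are printed on the gene's strand: SKIL at chr3:170357465-170357714 (plus strand), SMAD7 at chr18:48950966-48951215 (minus strand, the outermost of its starts in the table) and USP15 at chr12:62260154-62260403 (plus strand). Capitals mark the 5-letter motif CAGAC, bound by SMAD3 and SMAD4, on either strand (GTCTG on the other).

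SKIL: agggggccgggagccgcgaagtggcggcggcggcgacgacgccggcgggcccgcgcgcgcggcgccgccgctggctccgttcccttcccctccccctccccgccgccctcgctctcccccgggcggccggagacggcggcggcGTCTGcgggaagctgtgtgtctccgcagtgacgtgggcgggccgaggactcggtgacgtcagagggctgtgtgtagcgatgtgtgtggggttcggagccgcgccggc
SMAD7: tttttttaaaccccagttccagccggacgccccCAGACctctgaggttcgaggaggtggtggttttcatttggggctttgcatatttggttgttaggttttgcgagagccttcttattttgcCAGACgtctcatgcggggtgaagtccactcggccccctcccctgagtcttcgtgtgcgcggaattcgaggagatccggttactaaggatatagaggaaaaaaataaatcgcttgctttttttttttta
USP15: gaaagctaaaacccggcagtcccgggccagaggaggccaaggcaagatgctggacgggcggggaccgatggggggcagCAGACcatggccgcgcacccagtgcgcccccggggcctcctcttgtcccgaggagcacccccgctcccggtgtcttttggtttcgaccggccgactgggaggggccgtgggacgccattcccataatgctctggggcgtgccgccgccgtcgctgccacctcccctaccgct

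The motif occurred 1 time in the SKIL window, with its first letter at -107 from the transcript start, 2 times in the SMAD7 window, at -217 and -128, and 1 time in the USP15 window, at -172. Of all 35116 promoter windows of this length, 45.3% held at least 1 match, so a match is common. The palindromic SMAD element GTCTAGAC occurred in none of the windows of the 6 genes and in 0.202% of all windows. The windows of SMAD2 and SMAD4 held no CAGAC on either strand. Those of SMAD3 held 1, 0, 0, 1 and 4 matches, and the other SMAD7 windows, not printed here, held 1 and 0. The SKIL and USP15 windows were rich in G and C, at 79.0% and 69.7%, and the SMAD7 window less so, at 48.3%.

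SMAD2, SMAD7 and SMAD4 lie in this order within 3.28 megabases of chromosome 18. Of the 10 other tested genes in that span, limma called 0 with siRNA 1, where 4.66% of all genes were called. With siRNA 2 it called 1, where 6.83% were. At an unadjusted p under 0.05 were 0 and 1 of the 10, where 19.2% and 22.2% of all genes were. The called gene was SKA1, a kinetochore protein, at -0.42, named here after its value was seen. The changes of the 10 ran from -0.30 to 0.13 with siRNA 1 and from -0.42 to 0.12 with siRNA 2, so the SMAD2 differences of 0.29 and 0.34 lay above the range of its neighbours.

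Genes with the array pattern most like that of USP15 and SKIL, the members with the smallest F-test p over the 3 groups, were sought by Pearson correlation over the 6 arrays among all genes tested. With 6 points in 3 groups and 7442 genes to choose from, a high value can come from the choice among so many genes, and the values are given as a description. The highest for USP15 were MZT1 (0.995), CHST15 (0.994) and MMGT1 (0.993), and the lowest was TRMT10A (-0.995). MZT1, a small protein of the gamma-tubulin complex, gave 7.99 and 7.98 in control arrays, 8.25 and 8.11 after siRNA 1, and 8.38 and 8.42 after siRNA 2. The highest for SKIL were TMEM14A (0.997), CDCA8 (0.997) and AFG2A (0.996), and the lowest was PMPCB (-0.997). CDCA8, a subunit of the chromosomal passenger complex, gave 8.01 and 8.10 in control arrays, 7.66 and 7.78 after siRNA 1, and 7.05 and 7.13 after siRNA 2, so its steps were larger than those of SKIL.

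The rest of the pathway was read from 93 other genes listed by role, of which 51 had a named row and 43 were tested. The list was made with earlier results of these data known. With siRNA 1, limma called 6 of the 43, 4 higher (FURIN, BAMBI, SMAD5 and SHC1) and 2 lower (TRIM33 and MAP3K7). That is 14.0% of the 43 against 4.66% of all genes tested (2.28% higher and 2.38% lower). With siRNA 2 it called 2, SMAD5 higher and CCN2 lower, which is 4.65% of the 43 against 6.83% of all genes. Between the siRNAs it called 4: THBS1 and TPM1 were higher with siRNA 1, where 5.37% of all genes were, and TRIM33 and MAP3K7 were lower, where 3.78% were. At an unadjusted p under 0.05 there were 8, 12 and 12 of the 43, against 19.2%, 22.2% and 23.6% of all genes, so these counts lie near the background. The median difference over the 43 genes was 0.04, -0.01 and 0.08 on the log2 scale in these 3 comparisons.

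Among genes of ligands and their activation, 8 of 17 were tested. FURIN, the protease that cleaves the TGF-beta precursor, gave 7.49 and 7.58 in control arrays, 7.96 and 7.88 after siRNA 1, and 7.78 and 7.76 after siRNA 2. Both siRNA groups lay above the control without overlap. It rose with siRNA 1, by 0.38 ± 0.07 (SE, limma adjusted p = 0.0337), and was at 0.23 with siRNA 2 (adjusted p = 0.105). THBS1, thrombospondin, an activator of latent TGF-beta, gave 9.10 and 9.19 in control arrays, 9.50 and 9.43 after siRNA 1, and 8.99 and 8.80 after siRNA 2. The siRNAs moved it to opposite sides of the control, by 0.32 (adjusted p = 0.0955) and -0.25 (adjusted p = 0.151), neither of which passed, and the difference between them did, at 0.57 ± 0.09 (adjusted p = 0.00909). The other 6 tested genes, BMP2, BMP4, GDF11, LTBP1, LTBP3 and LTBP4, were not called.

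Of the other receptors, 3 of 11 had a row and 1 was tested, BAMBI, a receptor-like protein without a kinase that dampens signalling. Its signal was 6.95 and 7.11 in control arrays, 7.60 and 7.42 after siRNA 1, and 7.27 and 7.26 after siRNA 2. The groups did not overlap. It rose with siRNA 1, by 0.48 ± 0.09 (SE, limma adjusted p = 0.0342), and was at 0.24 with siRNA 2 (adjusted p = 0.185). SMAD5, a carrier of the BMP branch, was 1 of 2 tested among 4 other SMADs. It gave 7.07 and 6.85 in control arrays, 7.45 and 7.49 after siRNA 1, and 7.43 and 7.34 after siRNA 2. It rose with both, by 0.51 ± 0.09 (adjusted p = 0.0300) and 0.43 ± 0.09 (adjusted p = 0.0390), against the same control arrays. SMAD6, the inhibitor of the BMP branch, was at 0.12 and -0.12 (adjusted p = 0.408 and 0.349).

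Of 12 ubiquitin ligases and deubiquitinases, 7 were tested and TRIM33 was called. TRIM33, a ligase that binds SMAD2 and SMAD3 and acts on SMAD4, gave 9.19 and 9.15 in control arrays, 8.61 and 8.50 after siRNA 1, and 9.48 and 9.33 after siRNA 2. The groups did not overlap, and the siRNAs lay on opposite sides of the control. It fell with siRNA 1, at -0.61 ± 0.08 (SE, limma adjusted p = 0.0107), was at 0.23 with siRNA 2 (adjusted p = 0.151), and differed between the siRNAs by -0.85 ± 0.08 (adjusted p = 0.00125). The ligases SMURF1 and SMURF2, which SMAD7 draws to the receptor, were between -0.11 and 0.05 in both comparisons and were not called.

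In signalling without SMADs, 6 of 8 genes were tested. MAP3K7, the kinase TAK1, gave 8.65 and 8.71 in control arrays, 8.39 and 8.30 after siRNA 1, and 8.71 and 8.73 after siRNA 2. It fell with siRNA 1, at -0.33 ± 0.07 (SE, limma adjusted p = 0.0470), and differed between the siRNAs by -0.38 ± 0.07 (adjusted p = 0.0201). The call with siRNA 1 was lost with quantile normalization (adjusted p = 0.0546) and with array quality weights (0.0526). SHC1, an adaptor that links receptors to RAS, gave 9.83 and 9.73 in control arrays, 10.18 in both arrays after siRNA 1, and 10.15 and 10.05 after siRNA 2. It rose with siRNA 1, by 0.40 ± 0.07 (adjusted p = 0.0342), and was at 0.32 with siRNA 2 (adjusted p = 0.0520).

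Of 7 nuclear partners of SMADs, 5 were tested. Limma called none of them in the 3 comparisons, where 4.66%, 6.83% and 9.15% of all genes were called. At an unadjusted p under 0.05 were 1, 2 and 2, where 19.2%, 22.2% and 23.6% of all genes were. The largest difference was that of SKI, the relative of SKIL, at 0.34 between the siRNAs (adjusted p = 0.0563), from 0.26 with siRNA 1 and -0.07 with siRNA 2 against control (adjusted p = 0.146 and 0.701). Of 12 adaptors, phosphatases and trafficking genes, only STRAP was tested, at -0.11 and 0.01 (adjusted p = 0.483 and 0.973).

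Genes known to be raised by TGF-beta give a view of the pathway's output, with 13 of 22 tested. With siRNA 1, limma called 0 of them, where 4.66% of all genes were called. At an unadjusted p under 0.05 were 0, where 19.2% of all genes were, and their median difference was 0.05. With siRNA 2 it called 1, which is 7.69% against 6.83% of all genes, with 3 at an unadjusted p under 0.05 where 22.2% of all genes were, so both counts lie near the background. The median was -0.07. Of the 13, 9 were above the control mean with siRNA 1 and 3 with siRNA 2, as were 3664 and 3738 of all 7442. Between the siRNAs limma called 1, which is 7.69% against 9.15% of all genes. There 4 were at an unadjusted p under 0.05, where 23.6% of all genes were, and the median was 0.20. The gene called with siRNA 2 was CCN2, a matricellular protein that other pathways also raise. It gave 7.79 and 8.04 in control arrays, 7.57 and 7.88 after siRNA 1, and 7.27 and 7.23 after siRNA 2. It fell with siRNA 2, at -0.67 ± 0.12 (SE, limma adjusted p = 0.0233). CCN2 has 2 rows, and with these averaged it was too dim to be tested, so the call was lost. TPM1, a tropomyosin of stress fibres, gave 7.15 and 7.31 in control arrays, 7.36 and 7.45 after siRNA 1, and 6.75 and 6.97 after siRNA 2. It differed between the siRNAs by 0.54 ± 0.10 (adjusted p = 0.0185), from 0.17 with siRNA 1 and -0.37 with siRNA 2 against control (adjusted p = 0.408 and 0.0757). TPM1 has 2 rows, and with these averaged the difference was 0.40 and not called (adjusted p = 0.0833). The transcription factors SNAI1, SNAI2, ZEB1, KLF10, KLF11 and JUNB were not called in any of the 3 comparisons.

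**Figure D4:**
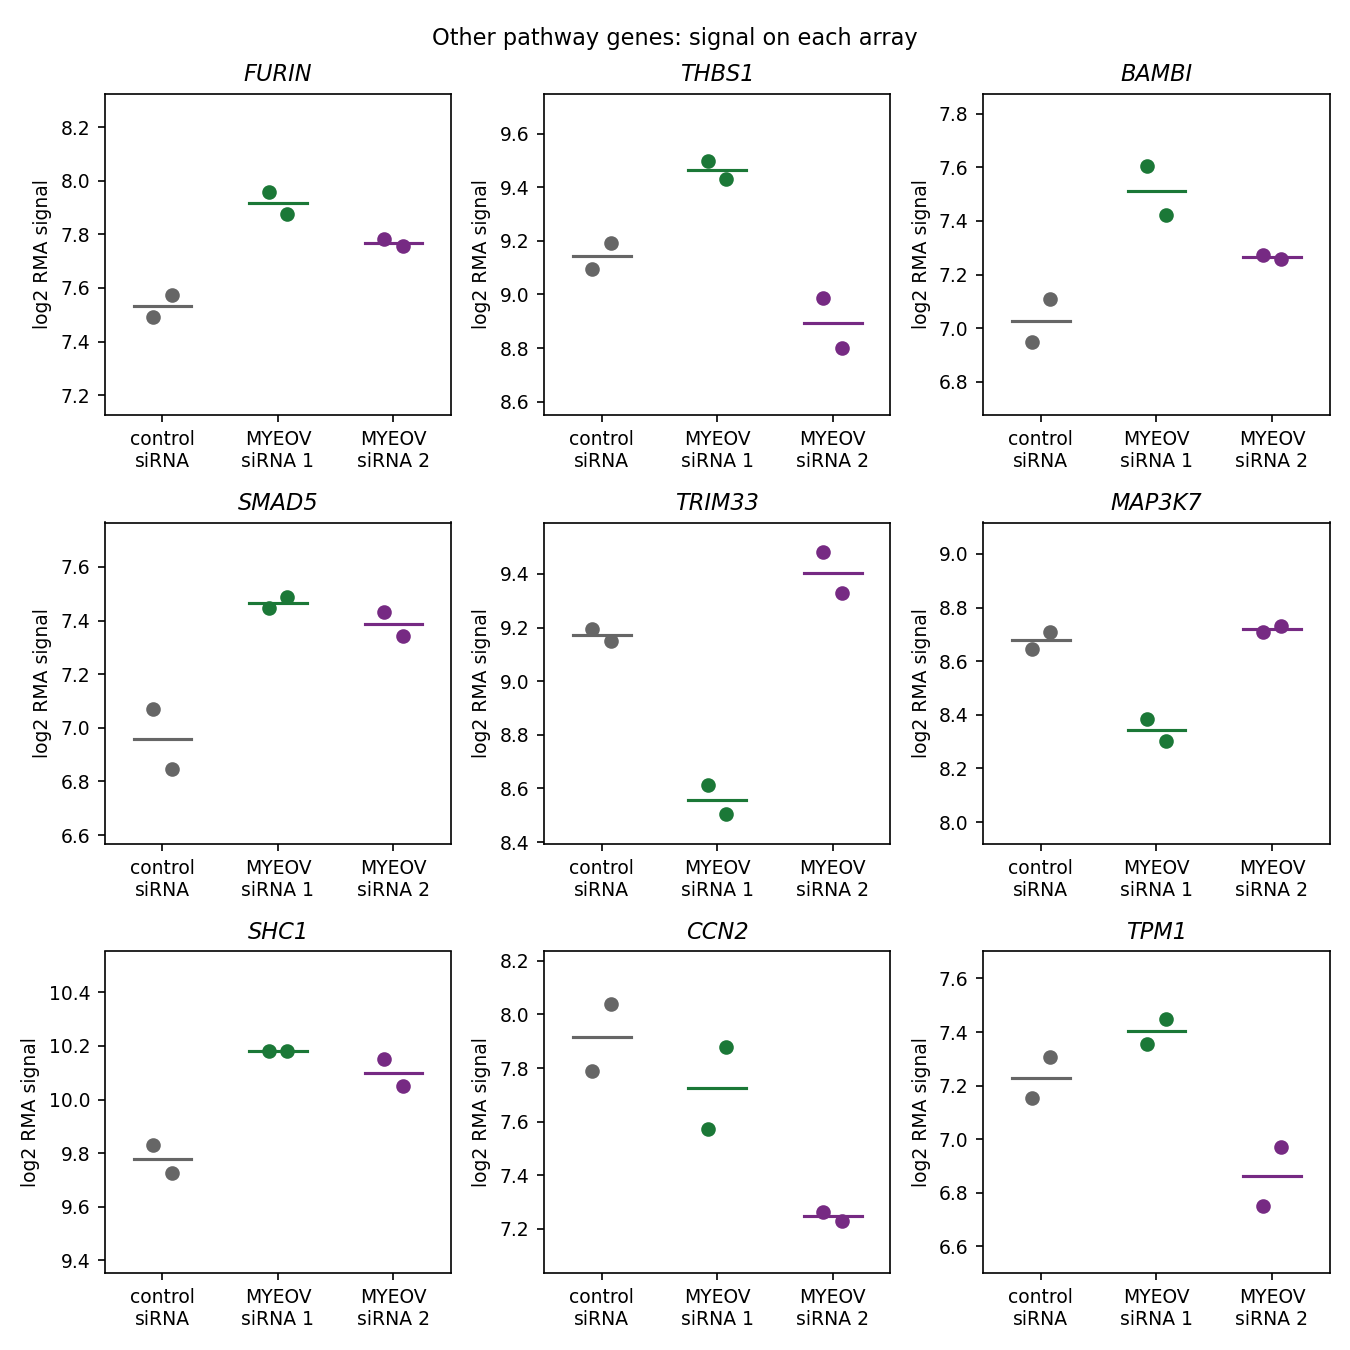
Log2 RMA signal (y axis, spanning 1.2 units in every panel) of the 9 other pathway genes called in any comparison, on each array (points) with the group mean (line). TRIM33 and MAP3K7 are lowest with siRNA 1, THBS1 and TPM1 are higher with siRNA 1 than with siRNA 2, and SMAD5 is higher than the control with both.

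Most of these calls were lost with 1 array fewer, for some of them also where that array was of neither group compared, while the differences kept their direction. Over all alternatives that tested a gene, the difference with siRNA 1 lay between 0.34 and 0.42 for FURIN and 0.39 and 0.58 for BAMBI. It lay between -0.37 and -0.29 for MAP3K7, 0.35 and 0.45 for SHC1, -0.67 and -0.56 for TRIM33 and 0.40 and 0.62 for SMAD5. With siRNA 2 it lay between 0.32 and 0.54 for SMAD5 and -0.79 and -0.54 for CCN2. Between the siRNAs it lay between 0.48 and 0.66 for THBS1, -0.42 and -0.33 for MAP3K7 and 0.40 and 0.65 for TPM1. The calls with siRNA 1 of FURIN, BAMBI, MAP3K7 and SHC1 were each lost without any 1 of the 6 arrays, with limma adjusted p from 0.0610 to 0.173, 0.0584 to 0.165, 0.0824 to 0.231 and 0.0523 to 0.173. For TRIM33 with siRNA 1 the adjusted p was 0.0684, 0.0607 and 0.0927 without control replicate 1, control replicate 2 and siRNA 1 replicate 2. For SMAD5 with siRNA 1 it was 0.107, 0.125 and 0.170 without control replicate 2, siRNA 1 replicate 1 and siRNA 1 replicate 2, and with siRNA 2 it was 0.121, 0.0765, 0.0765, 0.159 and 0.107 without control replicate 2, siRNA 1 replicates 1 and 2, and siRNA 2 replicates 1 and 2. For CCN2 it was 0.104, 0.0886 and 0.104 without control replicate 2, siRNA 2 replicate 1 and siRNA 2 replicate 2. Between the siRNAs, the adjusted p of THBS1 was 0.0667, 0.0544 and 0.0503 without siRNA 1 replicates 1 and 2 and siRNA 2 replicate 2, that of MAP3K7 0.0697, 0.123, 0.0880 and 0.0986 without siRNA 1 replicates 1 and 2 and siRNA 2 replicates 1 and 2, and that of TPM1 0.0707, 0.111 and 0.0895 without siRNA 1 replicates 1 and 2 and siRNA 2 replicate 1. The difference between the siRNAs in TRIM33 was called in all 16 alternatives, with adjusted p from 6.9e-05 to 0.0189.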

How the data were processed

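The deposited values are log2 signals that the authors made with RMA, which the submitters' processing notes name without a version. RMA corrects background, equalises arrays and summarises probes, and it compresses differences of dim transcripts. The array medians lay between 4.08 and 4.10, so nothing further was normalized. Of 53617 rows, 16098 had 1 gene symbol in the platform annotation, 0 had several and 37519 had none. All 16098 matched the RefSeq gene table (GRCh38.p14) by gene identifier. For 779 genes with several rows the row with the highest mean was kept. Genes with a mean of at least 5.45, the median over named genes, were tested (7442). Limma 3.58.1 in R 4.3.3 fitted 3 group means over all 6 arrays (3 residual and 4.09 prior degrees of freedom), with Benjamini-Hochberg adjustment over all genes tested. The number of arrays limits the precision. The fit was tested on simulated data.

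Members and lists were chosen with earlier results of these data known. Named were all members and every listed pathway gene called in any comparison, or else the largest change of its list. The closest patterns of the 2 members with the smallest F-test p were named too. Uncalled genes of lists that held a call, such as USP4, SMAD6, SMURF1 and SMURF2, were named outside this rule. Alternatives were the filter, the handling of rows, quantile normalization, median centring, fitting 2 groups, the replicate number as a block, the variance prior, array weights and each array left out. Figures were drawn with matplotlib 3.10.9.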

Additional observations from a re-analysis of the deposited data

Results flagged for a closer look

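The difference between the MYEOV siRNAs, tested in the same limma fit, passed for 4 pathway genes, and these siRNAs were meant to lower the same transcript. TRIM33 was lower with siRNA 1 than with siRNA 2, by -0.85 on the log2 scale, and so was MAP3K7, by -0.38. THBS1 and TPM1 were higher with siRNA 1, by 0.57 and 0.54. THBS1, TPM1 and TRIM33 lay on opposite sides of the control mean with siRNA 1 and siRNA 2. So did MAP3K7, though by only 0.04 with siRNA 2. Of their differences from control, only those of TRIM33 and MAP3K7 with siRNA 1 passed. The cause was not tested. Groups of 2 arrays are too small for a test of single outlying arrays.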

How the results depend on the processing

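Of the 6 members, the number called by limma with siRNA 1 was 0 and became 1 with the 75th percentile filter or the trend and robust prior. With siRNA 2 it was 3, and became 0 with no filter, 1 when only 2 groups were fitted, and 0 to 1 with an array left out. Between the siRNAs it was 0, and became 2 with the 75th percentile filter and 0 to 1 with an array left out. Of the 43 other pathway genes, 6 were called with siRNA 1, 0 with no filter, 2 with only 2 groups and 0 to 2 with an array left out. With siRNA 2 there were 2, 0 with no filter, 1 with rows averaged, 1 with only 2 groups and 0 to 2 with an array left out. Between the siRNAs there were 4, 1 with no filter, 3 with rows averaged and 1 to 4 with an array left out. Signs turned only with an array left out, where the log2 difference of SMAD4 ran from -0.0867 to 0.0371 between the siRNAs, and that of SMAD7 from -0.0102 to 0.0858 with siRNA 2 and from -0.00957 to 0.0975 between the siRNAs. With no filter, 14884 genes were tested and limma also took its shared spread from all of them. The part of each in the losses was not tested. Over all genes, 347, 508 and 681 calls became 39, 139 and 195 with no filter, and as few as 58, 207 and 226 with an array left out. Replicates with the same number deviated together to a small degree (correlations over genes of 0.265, 0.205 and 0.251 between the groups), but the labels do not say what the number marks. The replicate block changed no member's call. With it, 4 other pathway genes were called with siRNA 2, with SHC1 (adjusted p = 0.0377) and TPM1 (0.0245) gained, and 7 between the siRNAs, with CCN2 (0.0300), ZEB1 (0.0493) and FN1 (0.0303) gained. Quantile normalization and median centring shifted the median difference over genes by less than 0.02 and ended no member's call, though quantile normalization ended that of MAP3K7 with siRNA 1 (adjusted p = 0.0546). Of the 6 members, SMAD3 and SMAD7 have signals nearest to the level at which genes were tested. Differences are compressed there, so a small change in them could be missed. MYEOV lay below that level with both siRNAs, so the size of its fall may be compressed too.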
